A study of Mus musculus with 6 samples.

Results

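The 9 genes examined here were Speer4a, Speer4b, Speer4c, Speer4cos, Speer4d, Speer4e, Speer2, Speer3 and Gm10058, of the 24411 genes quantified in mouse testis. They were found by matching these symbols to the gene identifiers of the deposited tables, and all 9 were present. The list was drawn up with the difference between the genotypes already known, so the fold changes of its members describe these libraries and no test is read from them. The libraries came from whole testes of age-matched mice of the inbred strain C57BL/6. Of the 6 libraries, 3 were labelled MRP5-/- and MRP9-/- and 3 Wildtype. They are called DKO and WT libraries below, always after their labels. MRP5 and MRP9 are membrane transporters of the ABCC family, encoded by Abcc5 and Abcc12. The ages, the design of the alleles and the origin of the lines were not given in the sources used here.

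SPEER proteins (spermatogenesis-associated glutamate-rich proteins) are encoded by a rodent gene family that has spread in many copies, most of them clustered on mouse chromosome 5, and are known for expression in germ cells of the testis. Their cellular function is not well established. Families of this kind are hard to quantify from short reads, because a fragment that matches several copies has to be divided between them by estimation. Gm10058 belongs elsewhere. It lies on the X chromosome, and its transcript shared no stretch of 50 bases with any Speer gene. It shared 12.2% of its 100-base stretches with Slx, an X-linked multicopy gene of spermatids, and is described separately for that reason.

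All positions refer to GRCm38, the assembly behind the mm10 build named in the submitters' processing notes, and were taken from RefSeq. Speer4e (chr5:14933631-14938475), Speer4d (chr5:15619099-15623864) and Speer4c (chr5:15709505-15714298) lie within 1 part of chromosome 5. Speer4cos (chr5:15680710-15714596) is a transcribed pseudogene on the strand opposite to Speer4c and spans it. In the GENCODE M21 models 300 of the 1159 exonic bases of Speer4c are also exonic in Speer4cos. Speer3 (chr5:13791619-13796819) lies before that part, and Speer4a (chr5:26034270-26039505) and Speer4b (chr5:27495809-27501392) lie well beyond it. Speer2 (chr16:69856874-69863762) is on another chromosome, and Gm10058 is at chrX:27924021-27946885. By RefSeq, 8 of the 9 members code for protein, the exception being Speer4cos. Each of the 5 coding Speer4 members has 5 exons in its GENCODE M21 model.

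The bases directly upstream of the coding Speer4 copies are shown so that the copies described below can be compared by sequence. Each line gives the 250 bases before the start used in the RefSeq promoter table, 5′ to 3′ on the strand of the gene (RefSeq, GRCm38.p6). For Speer4c that start lies inside the gene span given above, so the first bases upstream of it fall within that span. For the other 4 it is the edge of the span. Capitals mark bases that differ from Speer4c in an alignment with free ends. The windows are chr5:15714272-15714521 (minus strand) for Speer4c, chr5:15618849-15619098 (plus) for Speer4d, chr5:14938476-14938725 (minus) for Speer4e, chr5:26039506-26039755 (minus) for Speer4a and chr5:27501393-27501642 (minus) for Speer4b.
Speer4c: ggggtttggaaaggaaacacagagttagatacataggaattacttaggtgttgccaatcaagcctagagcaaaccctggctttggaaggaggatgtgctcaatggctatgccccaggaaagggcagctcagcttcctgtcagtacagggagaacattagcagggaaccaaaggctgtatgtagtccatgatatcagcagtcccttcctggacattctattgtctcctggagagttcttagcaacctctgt
Speer4d: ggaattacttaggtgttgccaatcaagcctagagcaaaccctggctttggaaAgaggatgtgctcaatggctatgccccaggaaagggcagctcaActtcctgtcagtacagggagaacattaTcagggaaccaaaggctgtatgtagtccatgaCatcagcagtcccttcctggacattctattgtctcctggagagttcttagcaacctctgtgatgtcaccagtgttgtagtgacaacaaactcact
Speer4e: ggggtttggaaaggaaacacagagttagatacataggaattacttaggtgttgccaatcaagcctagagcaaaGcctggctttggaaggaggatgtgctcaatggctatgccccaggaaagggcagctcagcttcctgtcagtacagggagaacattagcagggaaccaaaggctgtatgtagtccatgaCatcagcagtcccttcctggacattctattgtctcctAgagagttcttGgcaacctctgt
Speer4a: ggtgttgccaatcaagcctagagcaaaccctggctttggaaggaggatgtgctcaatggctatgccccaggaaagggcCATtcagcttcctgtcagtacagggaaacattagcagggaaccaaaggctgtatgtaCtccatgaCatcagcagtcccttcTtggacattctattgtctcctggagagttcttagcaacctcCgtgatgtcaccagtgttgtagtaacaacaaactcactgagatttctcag
Speer4b: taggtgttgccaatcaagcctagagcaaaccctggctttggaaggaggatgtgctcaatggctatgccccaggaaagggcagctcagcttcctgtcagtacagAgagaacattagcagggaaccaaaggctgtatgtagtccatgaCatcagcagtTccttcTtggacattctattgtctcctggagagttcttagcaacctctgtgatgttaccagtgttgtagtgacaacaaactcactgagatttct
Over the aligned part, Speer4d matched Speer4c at 98.1% of 215 positions, Speer4e at 98.4% of 250, Speer4a at 96.1% of 204 and Speer4b at 98.1% of 206. Speer4a also lacked 1 base of Speer4c there. Short motifs were searched on both strands. All 5 windows held CCAAT, present in 33.8% of 32851 RefSeq promoter windows of the same length, and GTTGCC, present in 10.4%; these 2 motifs overlap in the Speer4 copies. None held TATAAA (12.4% of windows) or TGACGTCA (1.55%). A match describes letters in this window only.

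The members that were lower in DKO libraries were those of 1 stretch of chromosome 5, Speer4c, Speer4cos, Speer4d and Speer4e. The X-linked Gm10058 was also lower by its own listed counts. Its sum with its 9 closest copies in sequence was higher (log2 ratio 0.62), so no level is read from its own counts. Speer4a, Speer4b, Speer2 and Speer3 had overlapping levels in the genotypes. Levels are given as CPM, a gene's fragment count scaled for the size of its library by TMM. Fold changes compare DKO with WT (positive where DKO was higher) and come from the edgeR quasi-likelihood fit over all 17110 genes that passed a filter on low counts. A gene was called at a Benjamini-Hochberg adjusted p under 0.05. Of the 9 members, all of which passed the filter, 4 were called lower (Speer4c, Speer4cos, Speer4d and Gm10058) and 0 higher. Over all tested genes 5.10% were called lower and 5.75% higher (10.8% in all). Because the members were chosen on this contrast, nothing is read from their count, and Speer4cos and Gm10058 passed the filter only through the WT libraries. The median log2 fold change over the 9 members, Gm10058 included, was -0.37, and that over all tested genes was -0.0042. Nothing is read from this distance either, since it follows from how the members were chosen. The groups did not overlap for 5 of the 9 members, and for 35.9% of all tested genes.

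Speer4c, a protein-coding copy, had 40.1, 31.2 and 27.7 CPM in the 3 WT libraries and 12.9, 9.93 and 14.4 CPM in the 3 DKO libraries. Every WT library was above every DKO library. The means were 32.98 ± 6.37 and 12.4 ± 2.30 CPM (SD, n = 3 each), so DKO libraries held 37.7% of the WT level. The log2 fold change was -1.40 (SE 0.153), which ranked 18 from the lowest of the 17110 tested genes.

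Speer4cos, the transcript antisense to Speer4c, was scarce in every library. It had 37.9, 54.0 and 34.2 expected counts in WT libraries and 3.06, 6.25 and 9.23 in DKO libraries, although the latter were sequenced more deeply. In CPM these were 1.38 ± 0.258 and 0.117 ± 0.0381 (SD, n = 3 each), with no overlap and 8.48% of the WT level. The log2 fold change was -3.53 (SE 0.320). The strand setting of the counting is not given in the sources used here, so fragments from the exonic overlap of Speer4c and Speer4cos could not be told apart. Speer4cos had fractional counts in all 6 libraries. On its own strand it shared 100-base stretches with 0 other genes of the files. At 50 bases it shared only with Speer8-ps1, whose counts were whole in every library. Whether fragments were divided between Speer4cos and Speer4c was not tested, so their levels may not be independent.

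Speer4d, a coding copy of the same stretch, had 14.9, 11.4 and 12.3 CPM in WT libraries and 7.77, 6.74 and 9.45 CPM in DKO libraries. The groups did not overlap, and the level in DKO libraries was 62.1% of that in WT libraries (log2 fold change -0.68, SE 0.138). Speer4e, the coding copy at the other end of the same stretch, had 17.1, 14.8 and 13.9 CPM in WT libraries. It had 10.7, 10.7 and 13.9 CPM in DKO libraries. The groups of Speer4e met but did not cross, with DKO replicate 3 just under WT replicate 3. Speer4e was not called (log2 fold change -0.37, SE 0.123).

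**Figure D1:**
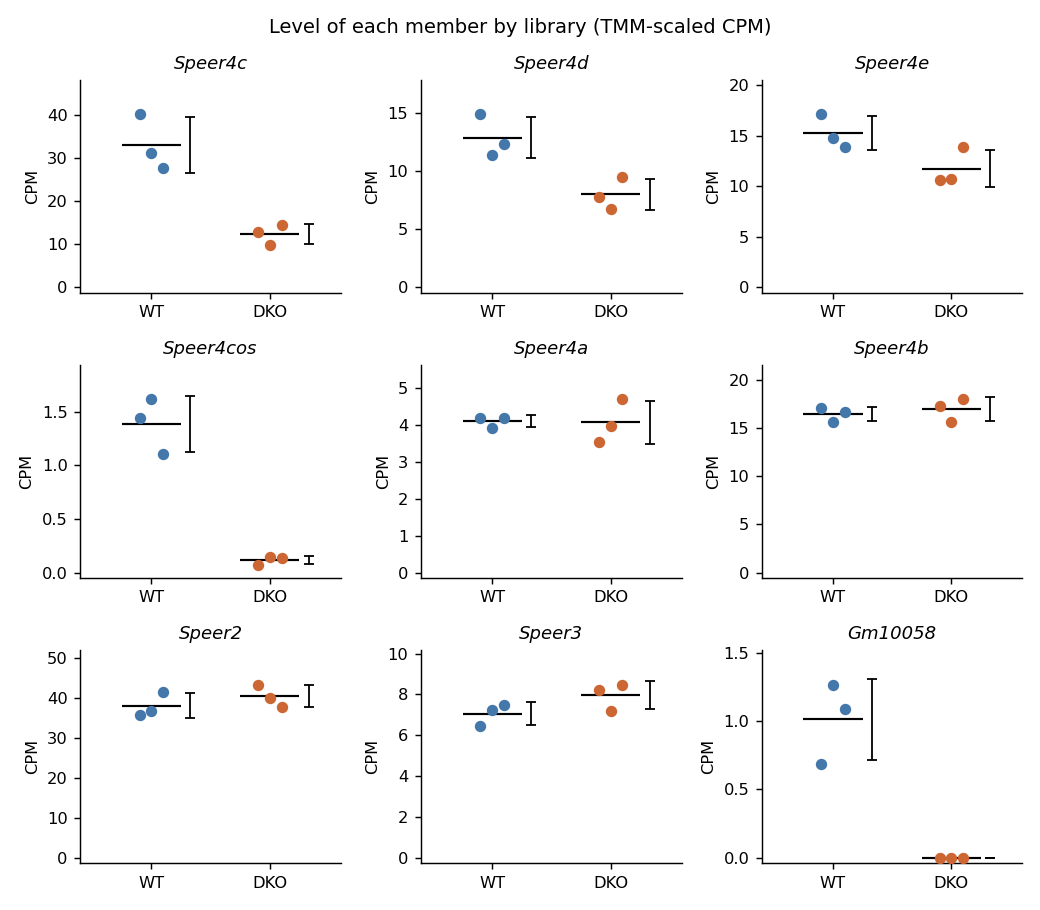
TMM-scaled CPM of the 9 members in each library (points), with the mean (line) and SD (bar at the right of each group) of the 3 WT libraries and the 3 DKO libraries. Each panel has its own axis. Speer4c, Speer4d, Speer4e and Speer4cos sit lower in every DKO library, Speer4a, Speer4b, Speer2 and Speer3 overlap, and Gm10058 is at 0 in all 3 DKO libraries.

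The remaining Speer4 members, both coding and both farther along chromosome 5, differed between the genotypes by less than the spread of the libraries. Speer4a had 4.204, 3.91 and 4.196 CPM in WT libraries and 3.55, 3.99 and 4.69 CPM in DKO libraries, with a log2 fold change of -0.0020 (SE 0.139). Speer4b had 17.1, 15.7 and 16.6 CPM and 17.3, 15.6 and 18.0 CPM in the same order (log2 fold change 0.0464, SE 0.0887). The groups overlapped for both genes. The summed level of Speer4c, Speer4d and Speer4e was 61.1 ± 9.62 CPM in WT libraries and 32.2 ± 5.26 CPM in DKO libraries. That of Speer4a and Speer4b was 20.6 ± 0.878 and 21.0 ± 1.53 CPM (SD, n = 3 each).

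Speer2 and Speer3 are the coding members outside the Speer4 group. Neither had a fractional count in any library, and neither shared a 100-base stretch with another gene. Speer2 had 35.7, 36.7 and 41.5 CPM in WT libraries and 43.2, 39.9 and 37.7 CPM in DKO libraries (log2 fold change 0.0848, SE 0.0843). Speer3 had 6.45, 7.25 and 7.498 CPM and 8.24, 7.20 and 8.48 CPM in the same order (0.17, SE 0.110). Both overlapped between the genotypes.

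Summed over the 9 members, which does not depend on how fragments were divided within the list, the level was 129 ± 7.405 CPM in WT libraries and 102 ± 6.56 CPM in DKO libraries (SD, n = 3 each). Library by library it was 138, 124 and 126 CPM against 104, 94.3 and 107 CPM, with no overlap and a log2 ratio of -0.35. Speer4c alone made up 29.3%, 25.4% and 22.2% of the fragments of the 8 Speer-named members in WT libraries, and 12.5%, 10.5% and 13.5% in DKO libraries. Over the 8 Speer-named members the log2 ratio was -0.33, and with the 6 other Speer-named genes of the files added it was -0.0877.

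Levels can be compared between genes only per length, so TPM was used for their order. In WT libraries, Speer2 led at 65.5 ± 5.82 TPM, followed by Speer4c at 52.4 ± 8.96, Speer4e at 23.1 ± 2.04, Speer4d at 21.1 ± 2.27, Speer4b at 14.3 ± 0.0862, Speer3 at 11.3 ± 1.14 and Speer4a at 4.91 ± 0.0757 TPM (SD, n = 3 each). Speer4cos (2.50 ± 0.510 TPM) and Gm10058 (2.38 ± 0.756 TPM) were lowest. The ranges of Speer2 and Speer4c overlapped, as did those of Speer4e and Speer4d and those of Speer4cos and Gm10058; the other neighbours in this order were apart. In DKO libraries, Speer2 stood alone at 69.5 ± 5.26 TPM. Below it, Speer4c (19.8 ± 4.25), Speer4e (17.7 ± 3.26), Speer4b (14.4 ± 1.5), Speer4d (13.2 ± 2.63) and Speer3 (12.7 ± 1.47 TPM) each overlapped the next. Speer4a followed at 4.80 ± 0.792 and Speer4cos at 0.210 ± 0.0693 TPM, while Gm10058 was listed at 0. Speer4c thus differed from Speer4e beyond the spread of the WT libraries, but not beyond that of the DKO libraries.

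**Figure D2:**
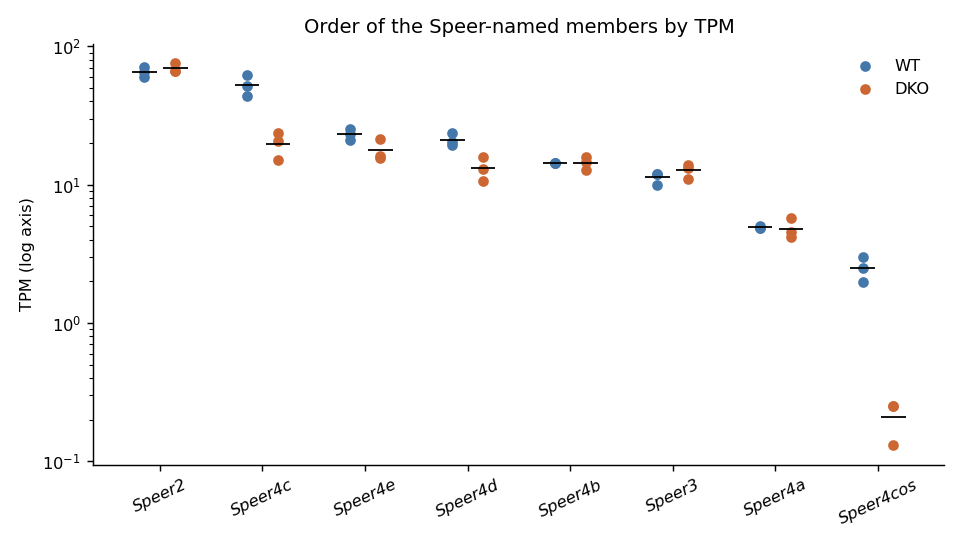
TPM of the 8 Speer-named members in each library (points, log axis) with group means (lines), ordered by their mean in the 3 WT libraries. The mean of Speer4c is 52.4 TPM in WT, near Speer2, and 19.8 TPM in DKO, near Speer4e, while that of Speer2 is 65.5 and 69.5 TPM.

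How far the copies share sequence was measured on GENCODE M21 transcripts matched through their RefSeq accessions. The measure is the share of 100-base stretches of a transcript that also occur in a transcript of another gene. Mean fragment length was 230 to 258 bases in WT libraries and 275 to 317 bases in DKO libraries. The share of fragments that fit several genes can therefore differ from that of stretches, and between the groups, and was not measured. The share of stretches was 69.2% for Speer4c, 49.6% for Speer4d, 35.6% for Speer4e, 22.7% for Speer4cos, 21.6% for Speer4a, 6.97% for Speer4b, 0% for Speer2 and Speer3, and 100% for Gm10058. These shares also count GENCODE genes that are not in the files, with which no fragments could be divided. For Speer4cos, 0 of the sharing genes were in the files and 2 were not. The GENCODE transcripts of Speer4a and Speer4e have 2980 and 1603 bases, against deposited lengths of 1503 and 1239 bases. Their shares over the counted models were not measured and may differ. Speer4c shared most with Speer4d (31.5% of its stretches) and 11.6% with Speer4e, and none with Speer4a or Speer4b. Within the files Speer4c, Speer4d and Speer4e shared stretches with the same 4 other genes, Gm9758, Gm10354, Gm17019 and 4930572O03Rik. Speer4a and Speer4b shared theirs with each other and 7 more genes, none of them among those 4. The sets were still linked, since Gm10354, Gm17019 and Gm9758 each shared 100-base stretches with Gm10471, Gm1979 and Gm21671 of the Speer4a set. Gm1979, for example, held 3.67% of the stretches of Gm10354. Speer4c also shared stretches with 5 GENCODE M21 genes that are not in the files, and Speer4a with 7. Summed over Speer4c and the 6 genes of the files that share a stretch with it, the level was 161, 132 and 130 CPM in WT libraries and 87.4, 77.4 and 102 CPM in DKO libraries. This sum did not overlap either, and its log2 ratio was -0.67. The sum over Speer4a and its 8 sharing genes was 79.7, 80.6 and 81.1 CPM against 95.0, 80.8 and 99.5 CPM, a log2 ratio of 0.19. How the estimation divided fragments among the genes of a sum does not enter the sum. How it divided them between the Speer4c sum and the Speer4a sum can enter both, and was not tested. Only stretches on the same strand were compared, so the antisense Speer4cos is not part of the Speer4c sum. The sums depend on the length of stretch: with 50 bases, chosen after seeing the data, the set of Speer4c grew to 16 genes with a log2 ratio of -0.29, and that of Speer4a to 16 genes with -0.23, the opposite sign.

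The 4 genes that share sequence with Speer4c without the Speer name also lie between the same flanking genes of chromosome 5, Pclo, which encodes a presynaptic scaffold protein, and Cacna2d1, which encodes a calcium channel subunit. This interval was chosen after its values were seen. It held 10 genes of the files from chr5:14910124 to 15883766, of which 4 are members. All 10 were lower in DKO libraries with no overlap between the groups, as were 17.5% of all tested genes. Called lower were 7 of the 10, and 5.10% of all tested genes. GENCODE M21 places Speer8-ps1 elsewhere within the interval than RefSeq does. The 6 genes that are no members had log2 fold changes of -0.25 (Gm10354), -0.46 (Gm17019), -0.49 (4930519H02Rik), -0.54 (Gm9758), -0.81 (4930572O03Rik) and -1.18 (Speer8-ps1), and 4 of them were called, the exceptions being Gm10354 and 4930519H02Rik. 4930519H02Rik, which shared no stretch of 50 bases with any other gene, had 6.91, 5.22 and 4.91 CPM in WT libraries and 3.87, 4.77 and 3.52 CPM in DKO libraries. Without WT replicate 3, WT replicate 2 or DKO replicate 1, 2 of the 10 were called, without DKO replicate 2, 3 were, without WT replicate 1, 6 were, and without DKO replicate 3, 9 were; with fragment length as a covariate 0 were. All 10 stayed lower in each of these fits. With that covariate the log2 fold changes were -1.52 for Speer4c, -2.98 for Speer4cos, -0.68 for Speer4d, -0.19 for Speer4e, -0.62 for Gm9758, -0.91 for 4930572O03Rik, -0.73 for 4930519H02Rik, -0.36 for Gm17019, -0.23 for Gm10354 and -1.15 for Speer8-ps1.

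On either side of the interval, of the 11 tested genes from chr5:10865029 up to and including Pclo, 0 were called lower and 2 higher (5.10% and 5.75% over all tested genes), with a median log2 fold change of 0.17. Of the 8 from Cacna2d1 to chr5:20704792, 0 were called in either direction (median 0.0416), among them Speer4f1, another coding Speer4 copy, at 0.0066 (SE 0.0889). Of the 11 tested genes within chr5:25949797-27855086, where Speer4a and Speer4b lie, 0 were called (median 0.0464).

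**Figure D3:**
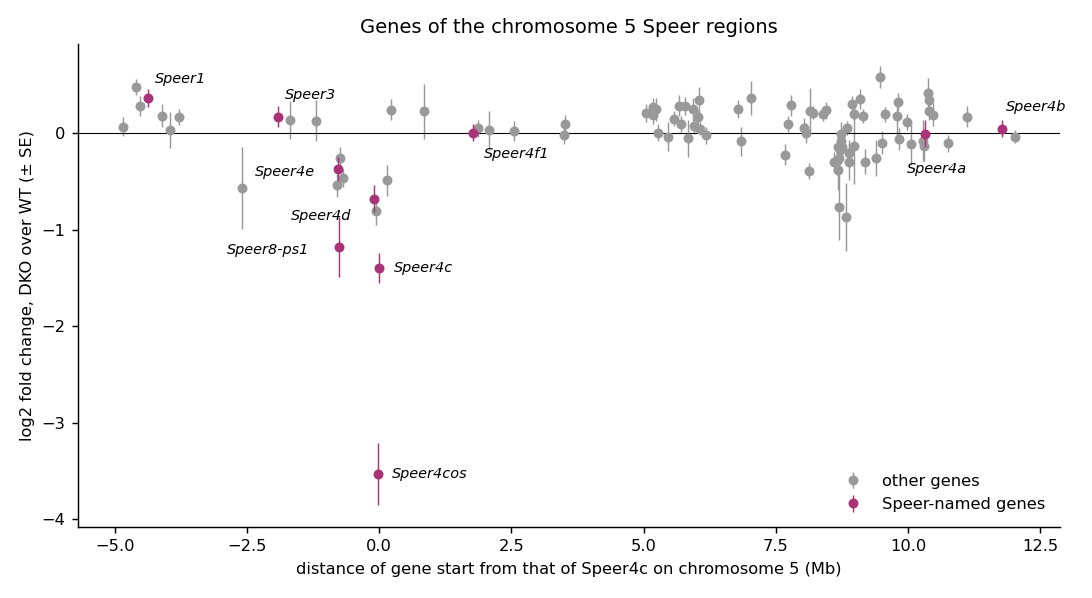
Log2 fold change (labelled DKO over labelled WT, points, with SE bars) of tested chromosome 5 genes against the distance of their start from that of Speer4c in Mb. Speer-named genes are drawn in purple and other genes in grey. Speer4e, Speer8-ps1, Speer4d, Speer4cos and Speer4c lie below 0 with their neighbours, while Speer1 and Speer3 on one side and Speer4f1, Speer4a and Speer4b on the other lie at 0.37, 0.17, 0.0066, -0.0020 and 0.0464.

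The files held 6 further genes with a Speer symbol, all tested. Of these, 1 was called higher, Speer1 (50.4 ± 2.83 CPM in WT libraries and 65.2 ± 8.18 CPM in DKO libraries, SD, n = 3 each; log2 fold change 0.37, edgeR adjusted p = 0.0369), and 1 lower, the transcribed pseudogene Speer8-ps1 (0.911 ± 0.238 and 0.383 ± 0.119 CPM; -1.18, edgeR adjusted p = 0.0384). Both calls were kept without DKO replicate 3 and lost without any other single library, with adjusted p-values from 0.0683 to 0.139 for Speer1 and from 0.0732 to 0.145 for Speer8-ps1. With fragment length as a covariate neither was called, and the log2 fold change was 0.0615 for Speer1 and -1.15 for Speer8-ps1. Other genes hold 78.0% of the 100-base stretches of Speer1 and 27.3% of those of Speer8-ps1. For Speer8-ps1, 0 of those genes are in the files, and its counts were whole in all 6 libraries. Speer1 had fractional counts in all 6 libraries, and how its fragments were divided was not tested. Speer4f1, Speer5-ps1, Speer6-ps1 and Speer9-ps1 were not called, at 0.0066, 0.15, 0.0521 and -0.47. The median over the 6 was 0.0293, and the shares called over all tested genes were 5.75% higher and 5.10% lower.

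Gm10058 was listed at 0 in every DKO library and at 18.0, 42.5 and 33.65 expected counts in WT libraries. No fold change is given against a group listed at 0. The deposited tables list 12 transcript entries for it, and every one of its 100-base stretches occurs in another gene. In 2 genes, Gm10486 and Gm14819, all of its stretches occur. Gm10486 was listed at 0 in every library except DKO replicate 3, with 1.79 CPM. Gm14819 had 0.591, 0.489 and 0.552 CPM in DKO libraries and 0.372, 0.357 and 0.321 CPM in WT libraries. Gm10096, which holds 97.9% of the stretches, had 4.05, 3.88 and 1.72 CPM in DKO libraries and 1.64, 1.22 and 1.21 CPM in WT libraries. Neither gene overlapped between the genotypes, and the DKO mean was 155% of the WT mean for Gm14819 and 237% for Gm10096.

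The sum over Gm10058 and its 9 closest copies, each holding at least 85% of its stretches, ran the other way from Gm10058. It was 4.12, 3.56 and 4.06 CPM in WT libraries and 5.83, 5.35 and 6.87 CPM in DKO libraries, with no overlap and a log2 ratio of 0.62. Over Gm10058 and all 19 genes of the files that share a stretch with it, the sum was 19.1 ± 2.16 and 25.1 ± 3.07 CPM (SD, n = 3 each), again without overlap, and the log2 ratio was 0.40. How fragments were divided among these copies was not tested, so no level of the Gm10058 sequence is read from its own value. In the list of sex-linked multicopy genes, 14 of 17 were tested, and 4 were called higher (5.75% over all tested genes) and 0 lower, with a median of 0.29. Sly, the Y-linked relative of Slx, had 82.1 CPM in DKO libraries and 50.1 CPM in WT libraries (log2 fold change 0.71, edgeR adjusted p = 0.0225).

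**Figure D4:**
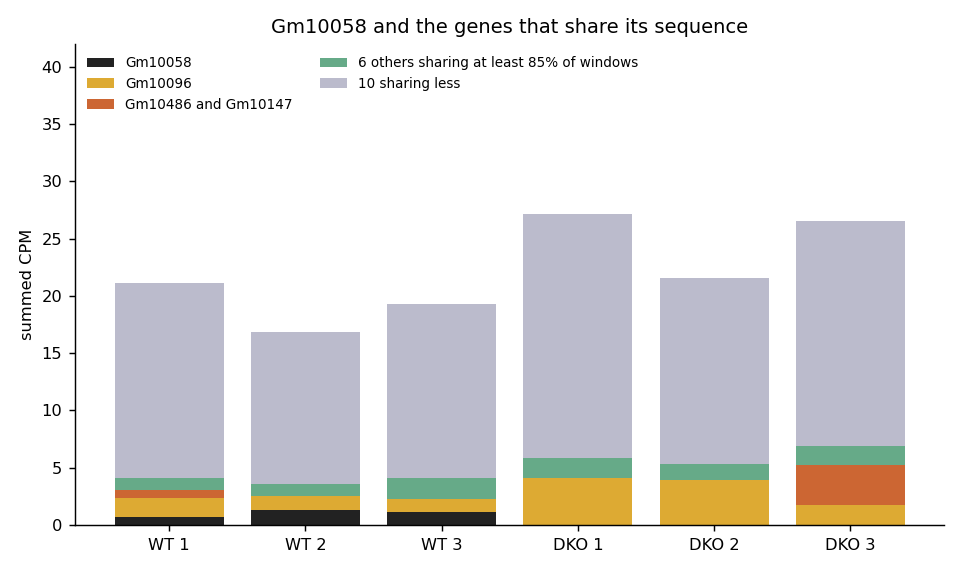
Stacked bars of CPM in each library for Gm10058 (black), Gm10096 (yellow), Gm10486 with Gm10147 (orange), the 6 other genes that share at least 85% of its 100-base stretches (green) and the 10 that share less (grey). Gm10058 is seen only in WT libraries, while the whole bars reach 16.8 to 21.1 CPM in WT libraries and 21.6 to 27.2 CPM in DKO libraries.

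The genes whose pattern over the 6 libraries was most like the summed level of the 8 Speer-named members were found among 15072 tested genes by Pearson's correlation of log2 CPM. They were 4930572O03Rik (r = 0.995), 4933400F21Rik (0.992), Ndrg4 (0.989), Dnd1 (0.985), which encodes an RNA-binding protein of germ cells, and Tmcc2 (0.983). These values are a description over 6 libraries that differ in genotype label, depth and fragment length together. The first lies in the chromosome 5 interval and shares sequence with members; the other 4 share none, and their log2 fold changes of -0.17, -0.13, -0.43 and -0.35 were smaller than that of Speer4c.

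Facts of the whole series bear on these values. Total expected counts were 26753721 to 31745969 in WT libraries and 42673615 to 67131103 in DKO libraries, and mean fragment length was 230 to 258 and 275 to 317 bases, so neither overlapped. With effective length as an offset, Speer4c, Speer4cos and Speer4d had log2 fold changes of -1.36, -3.49 and -0.64, and after thinning every library to the smallest total count -1.41, -3.88 and -0.72. Abcc12 was at 79.0 ± 5.56 CPM in DKO libraries against 160 ± 3.93 CPM, but Abcc5 was higher there, at 16.8 ± 0.190 against 11.4 ± 0.898 CPM (SD, n = 3 each), so the groups are called by their labels and every direction above rests on those labels. Summed over each list, germ cell markers were abundant in all libraries, but single markers were not always. The spermatogonia list summed to 790 to 866 CPM in WT libraries and 835 to 886 CPM in DKO libraries. Most of that was Dmrtb1 (means of 649 and 685 CPM), while Sall4 had a mean of 0.963 TPM over all libraries. Of the round spermatid markers 0 of 19 were called (median log2 fold change 0.0268; 4789 to 5512 CPM summed in WT libraries and 5041 to 5271 in DKO libraries). Of the spermatogonia markers 0 of 14 were called (median 0.0104), and of the spermatocyte markers 3 of 13 were called higher and 0 lower (median 0.30; 6615 to 7074 CPM summed in WT libraries and 6950 to 7257 in DKO libraries). Of the elongating spermatid markers 4 of 15 were called higher and 2 lower (median 0.0521). Of the somatic lists, 7 of 19 Sertoli, 3 of 9 Leydig and 1 of 6 peritubular markers were called lower and 0 higher, and 0 of 8 macrophage and 0 of 6 endothelial markers were called. Beside all these lists, the shares over all tested genes were 5.10% called lower and 5.75% called higher. The part of these cell types in the levels of the members was not tested. In whole testis, fewer cells of a type and less RNA per cell cannot be told apart.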

How the data were processed

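RNA from whole testes was sequenced in 6 libraries, 3 labelled DKO and 3 labelled WT by the genotype label. Replicates were numbered in order of deposition, and the labels do not describe further how the animals relate. The submitters' processing notes name STAR 2.7.0f, RSEM 1.2.31, DESeq2 1.12.3 and the mm10 build; strand setting and read filters are not given in the sources used here. Per the file headers, the authors deposited RSEM gene tables, 1 per library, with expected counts (estimated counts that may be fractional), TPM, and a length and effective length per gene; 92.9% to 93.4% of expected counts were whole. The deposited length of each member was the same in all libraries, so no length test was made.

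Expected counts were rounded, filtered with filterByExpr, scaled by TMM and tested with edgeR 4.0.16 (glmQLFit, glmQLFTest) in R 4.3.3 on the 6 libraries, the model holding genotype alone, with Benjamini-Hochberg adjustment over 17110 genes. The standard error is the absolute log2 fold change divided by the square root of F. The fit was tested on simulated data. Mean fragment length was recovered from the 2 length columns of genes over 3000 bases. Alternatives used DESeq2 1.42.0, limma 3.58.1 on log2(TPM + 1) and log2(TPM + 0.1), other scalings, filters and offsets, thinning and leaving out each library. Sequence sharing used GENCODE M21 transcripts, whose ends can differ from the RefSeq models behind the counts; all 15 members and Speer-named genes were matched. A planned search for protein relatives was not run, since no protein sequences were used here. Named genes were the 9 members, other Speer-named genes, the targeted genes, marker lists, and the 5 genes with the most similar pattern and an average log2 CPM of at least 0. The members and lists were chosen with earlier results of these data known. The chromosome 5 interval, the copies of Gm10058 and the sums over sharing genes were added after seeing the data. P-values measure the spread between these libraries only.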

Additional observations from a re-analysis of the deposited data

How the results depend on the processing

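Across all libraries and alternatives, Speer4c stayed lower, with log2 fold changes from -1.52 to -1.36 when all libraries were kept and from -1.53 to -1.25 when 1 was left out. Speer4d ranged from -0.72 to -0.64 and from -0.82 to -0.58; it was not called without DKO replicate 1 or 2 or WT replicate 2 or 3. With fragment length as a covariate none of the members was called. Speer4cos ranged from -3.88 to -1.52, nearest 0 on log2(TPM + 1); DESeq2 gave it no adjusted p, and its depth of under 10 counts in DKO libraries limits its precision. Speer4e was called with DESeq2 and without DKO replicate 3 only. The value of Speer4e was -0.19, that of Speer4a 0.27 and that of Speer2 -0.0712 with fragment length as a covariate. The summed level of the members ranged from -0.38 to -0.29 without 1 library. It was -0.0877 over all Speer-named genes, which adds 6 genes and leaves out Gm10058.

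Over all tested genes, leaving out 1 library gave 7 to 3029 calls, 0 to 1903 higher and 7 to 1126 lower. An adjusted p under 0.01 left 7, 0 higher and 7 lower. DESeq2 called 2943, 1645 of them higher. On log2(TPM + 1) limma made 735 calls (279 rising, 456 falling) and on log2(TPM + 0.1) 947 (370 rising, 577 falling), against 984 higher and 872 lower in the edgeR result. Adding fragment length to the model left 1 call, which was lower, and 0 higher calls (545 genes had an unadjusted p under 0.05 by edgeR); there 0 of the other Speer-named genes were called higher and 0 lower, with 0 at an unadjusted p under 0.05. Of these genes, 0 were called higher on either TPM scale (with 3 at an unadjusted p under 0.05), and 0 to 1 higher and 0 to 1 lower without 1 library. DESeq2 and the filter on a mean count of 50 gave no adjusted p for Speer8-ps1. The causes were not tested. With 50-base stretches the summed log2 ratio of Gm10058 and 21 sharing genes was 0.39. No paired analysis was possible because the numbers in the sample titles are not shared between the genotypes, and the replicate numbers used here follow the order of deposition and pair no libraries.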
